A study of Mus musculus with 6 samples.

Results

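The transcripts described here mark neurons of the hypothalamus and do not encode peptide messengers. They were 7 genes picked by name, Hdc, Irs4, Baiap3, Ecel1, Lepr, Esr1 and Mc4r, and all 7 were present among the 15423 genes of the deposited count table and passed the filter on low counts. They were picked with the difference between the SD and CTR mice already known, so their values, and the calls they received in the test across all genes, are given as a description that supports nothing. Hippocampal RNA of C57BL/6J mice was sequenced from 3 SD ("Short Day") mice, numbered 2, 5 and 6, and from 3 CTR mice, numbered 1, 2 and 5. SD mice were born to breeders held under alternating light and darkness of 8 h each and stayed under it until postnatal day 42, whereas the CTR colony had 12 h of each. The litter and sex of each sequenced mouse were not stated, so the spread between mice and the difference between groups may include these.

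The hypothalamus controls feeding, body temperature, arousal and reproduction, and its neurons carry receptors for hormones that report on fat stores and on the gonads. Leptin from fat acts through the leptin receptor (Lepr) on neurons of the arcuate nucleus, and these act on neurons that carry the melanocortin 4 receptor (Mc4r), a receptor that restrains feeding. Esr1 encodes oestrogen receptor alpha, a nuclear receptor, and Irs4 an adaptor protein that couples insulin-like receptors to phosphoinositide 3-kinase. Hdc encodes histidine decarboxylase, which makes histamine in neurons of the tuberomammillary nucleus and in mast cells. Baiap3 encodes a protein of the MUNC13 family that acts in the traffic of dense core vesicles, and Ecel1 a membrane protein of the neprilysin family of peptidases. None of these genes is exclusive to the hypothalamus. Lepr is also known from the choroid plexus and the meninges, and Esr1 and Mc4r from other forebrain regions.

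Upstream sequences were taken from RefSeq (GRCm38.p6, the build of mm10), which held 6 of the 7 genes. The 250 bases before the transcription start are shown for Irs4 and Ecel1, the genes of largest fold change, and for Hdc, which was above the CTR mice in every SD mouse. The windows follow RefSeq starts, and GENCODE places the start of each of these genes further upstream, so the window of Hdc lies wholly and those of Irs4 and Ecel1 partly within the GENCODE gene. Capitals mark any match to the motifs searched on both strands, which were the E-box CACGTG, the D-box TTANGTAA, the nuclear receptor half-site AGGTCA, the CRE half-site TGACG, the TATA box TATAAA and the GC box GGGCGG.
Irs4 (chrX:141725218-141725467, minus strand): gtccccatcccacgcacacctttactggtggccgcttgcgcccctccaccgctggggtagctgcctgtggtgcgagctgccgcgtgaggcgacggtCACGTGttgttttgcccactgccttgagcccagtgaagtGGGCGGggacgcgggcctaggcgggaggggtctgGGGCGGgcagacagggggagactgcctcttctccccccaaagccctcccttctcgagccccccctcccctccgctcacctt
Ecel1 (chr1:87156357-87156606, minus strand): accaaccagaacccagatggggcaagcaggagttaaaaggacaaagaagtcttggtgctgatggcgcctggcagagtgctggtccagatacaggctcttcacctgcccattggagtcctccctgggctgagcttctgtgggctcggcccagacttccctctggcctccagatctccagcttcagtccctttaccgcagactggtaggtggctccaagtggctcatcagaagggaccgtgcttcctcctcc
Hdc (chr2:126618679-126618928, minus strand): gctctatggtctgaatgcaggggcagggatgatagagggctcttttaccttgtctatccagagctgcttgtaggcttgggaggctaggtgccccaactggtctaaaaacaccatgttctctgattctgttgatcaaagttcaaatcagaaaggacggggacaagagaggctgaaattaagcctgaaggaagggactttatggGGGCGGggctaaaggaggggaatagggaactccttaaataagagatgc
The window of Irs4 held an E-box, whose first base lay 154 bases before the start, and 2 GC boxes, at 115 and 81 bases. That of Hdc held 1 GC box, at 48 bases, and that of Ecel1 none of these motifs. Among all 32851 windows of the same length, 6.02% held the E-box and 32.7% the GC box. The window of Baiap3 and both windows of Esr1 held no match, and 1 of the 2 windows of Lepr held a GC box. No motif searched was thus shared by Irs4 and Ecel1.

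Total counts were 25755316 to 34447082 in SD mice and 23300710 to 30035148 in CTR mice. CTR mouse 5 stood apart in sex-linked transcripts, with 30044 counts of Xist, where the other mice had 0 to 20, and 10 counts of the Y-linked Ddx3y, where the others had 1652 to 3090. By these transcripts CTR mouse 5 was female and the other mice, among them every SD mouse, were male. Rn45s, the precursor of ribosomal RNA, made up 1.84% of the library of CTR mouse 1, against 0.164% to 0.231% elsewhere. All 12 markers of hippocampal principal neurons were measured, and their summed level was 1124 to 1202 CPM (counts scaled to a common library size, with TMM factors) in SD mice and 1097 to 1175 CPM in CTR mice. The defining transcription factors of hypothalamic nuclei were scarcer, and 7 of 24 listed were measured. Markers of other regions and cell types were less even. The summed level of 15 choroid plexus markers was 4049, 11359 and 11245 CPM in SD mice 2, 5 and 6 and 2806, 428 and 4724 CPM in CTR mice 1, 2 and 5. Ttr and Enpp2 made up most of this sum. They were at 6586 and 3901 CPM in SD mouse 5 and at 103 and 275 CPM in CTR mouse 2. In bulk tissue, fewer cells of a type and less RNA per cell cannot be told apart.

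All 7 genes had a positive log2 fold change in SD relative to CTR mice, with a median of 0.95, against 0.0015 over all 15345 genes tested. The cutoffs of the study, a log2 fold change of 0.58 in size and an unadjusted p of 0.05, were applied to the quasi-likelihood test of edgeR, and genes past both are referred to as called. Called higher were 5 of 7, Irs4, Ecel1, Esr1, Hdc and Lepr, while 2.1% of all tested genes were called higher, a background from which nothing is read because the genes were picked on this contrast. After Benjamini-Hochberg adjustment edgeR left 0 genes of the whole table under 0.05, against 1277 before adjustment, and DESeq2 left 56. DESeq2 called 4 of the 7, without Lepr, and 1.47% of all genes higher. The count in edgeR was 3 of 7 without SD mouse 2 and 2 of 7, Hdc and Ecel1, without CTR mouse 2. The genes did not move as 1 group. In 5 of 7, Irs4, Ecel1, Baiap3, Esr1 and Lepr, the ranges of SD and CTR mice overlapped, and in Hdc and Mc4r all SD mice lay above all CTR mice, as 6.11% of tested genes did. SD mouse 2 had the highest level of 6 genes and SD mouse 5 that of Lepr. CTR mouse 2 had the lowest level of 5 genes and CTR mouse 5 that of Ecel1 and Mc4r. By edgeR, 6 of 10 ependymal markers were called higher (median log2 fold change 0.77) and 6 of 10 thalamic markers lower (median -0.63). Markers of striatal, septal and amygdalar neurons, of which 4 of 13 were called higher and 1 lower, summed to 238, 201 and 197 CPM in SD mice 2, 5 and 6 and to 165, 167 and 193 CPM in CTR mice 1, 2 and 5. This sum was above all CTR mice in every SD mouse. It was highest in SD mouse 2, as were 6 of the 7 genes, and its part in their levels was not tested.

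**Figure D1:**
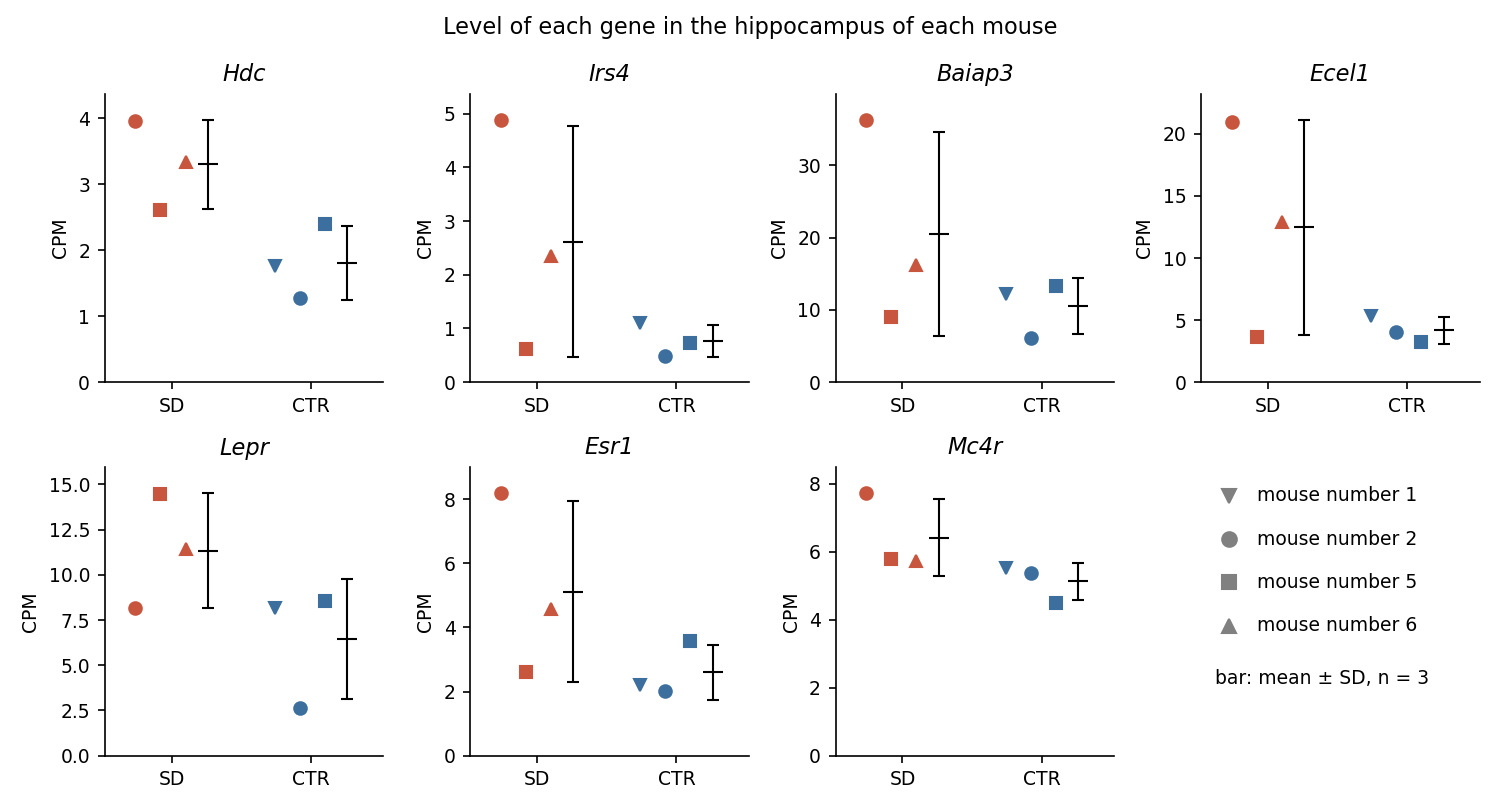
Level of the 7 genes in CPM (y axis, starting at 0) in each SD mouse (red, left) and each CTR mouse (blue, right). Symbols give the mouse number and black bars the mean ± SD of 3 mice. In Irs4, Ecel1, Baiap3 and Esr1 the square of SD mouse 5 lies within the range of the CTR mice.

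Irs4 lies on chromosome X of GRCm38, from 141710998 to 141725263 on the minus strand. It had 126, 18 and 81 counts in SD mice 2, 5 and 6, against 25, 12 and 22 counts in CTR mice 1, 2 and 5. At equal depth SD mice 2 and 6 were above every CTR mouse, and SD mouse 5, at 0.609 CPM, was below CTR mice 1 and 5. Its level averaged 2.61 ± 2.15 CPM in SD mice and 0.771 ± 0.303 CPM in CTR mice (SD, n = 3 each), the largest log2 fold change of the 7 genes at 1.75 ± 0.62 (SE). The level in the highest SD mouse was 8.03 times that in the lowest. The coefficient of variation of the SD mice was 82.4%, where counting error alone gives 11.5% at this depth. Without SD mouse 2 the log2 fold change was 0.96 and the gene was not called, nor was it without CTR mouse 2, at 1.53. CTR mouse 5, which alone had abundant Xist, lay between the other CTR mice at 0.723 CPM.

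Ecel1, on chromosome 1 from 87147655 to 87156521, followed the same order of SD mice. It had 539, 107 and 446 counts in SD mice 2, 5 and 6, against 122, 97 and 98 counts in CTR mice 1, 2 and 5. SD mice 2 and 6 stood well above the CTR mice, and SD mouse 5, at 3.62 CPM, stood between CTR mouse 5 at 3.22 CPM and CTR mouse 2. The means were 12.5 ± 8.66 CPM in SD mice and 4.19 ± 1.08 CPM in CTR mice (SD, n = 3 each), with a log2 fold change of 1.58 ± 0.49 (SE). It was called in all 6 fits that left out 1 mouse, and without SD mouse 2 the log2 fold change was 1.00. Irs4 and Ecel1 had the most alike profiles of the 21 pairs. The root mean square difference of their levels, standardized over the 6 mice on the log2 scale, was 0.24, where 0 means the same profile, against 1.28 for Ecel1 and Lepr.

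Baiap3, on chromosome 17 from 25242659 to 25256364, was the most abundant of the 7 genes per length. It had 936, 266 and 560 counts in SD mice 2, 5 and 6, against 279, 148 and 406 counts in CTR mice 1, 2 and 5. SD mouse 2 stood apart at 36.3 CPM, SD mouse 6 was at 16.2 CPM, just above CTR mouse 5 at 13.3 CPM, and SD mouse 5 was below CTR mice 1 and 5. The means were 20.5 ± 14.2 CPM in SD mice and 10.6 ± 3.89 CPM in CTR mice (SD, n = 3 each). The log2 fold change was 0.95 ± 0.44 (SE), and the gene was not called. It was called without SD mouse 5, at 1.31, and without CTR mouse 5, at 1.16, while without SD mouse 2 the log2 fold change was 0.26. At its 3′ end the gene overlaps Tsr3 on the opposite strand, and the authors counted reads by strand.

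Esr1, on chromosome 10 from 4611593 to 5005614, had 211, 77 and 158 counts in SD mice 2, 5 and 6, against 50, 49 and 109 counts in CTR mice 1, 2 and 5. As in the 3 genes above, SD mice 2 and 6 exceeded every CTR mouse and SD mouse 5 did not. Its level was 5.12 ± 2.83 CPM in SD mice and 2.60 ± 0.855 CPM in CTR mice (SD, n = 3 each), with a log2 fold change of 0.96 ± 0.38 (SE). The gene was not called without SD mouse 2, at 0.46, without CTR mouse 1, at 0.85, or without CTR mouse 2, at 0.80. It was called without SD mouse 5, at 1.28, SD mouse 6, at 1.03, or CTR mouse 5, at 1.27. Its CTR level was highest in CTR mouse 5, at 3.58 CPM, the mouse with abundant Xist, which was also the highest CTR mouse in Hdc, Baiap3 and Lepr. CTR mouse 5 also differed from CTR mice 1 and 2 in markers of other tissue. Its summed medial habenula markers were at 202 CPM, against 76.7 and 70.4 CPM. Its ependymal markers were at 69.8 CPM, against 44.9 and 34.6 CPM. What part sex or such tissue has in the levels of these genes was not tested.

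The level of Hdc, on chromosome 2 from 126593667 to 126619299, varied less. It had 102, 77 and 115 counts in SD mice 2, 5 and 6, against 40, 31 and 73 counts in CTR mice 1, 2 and 5. The lowest SD mouse, at 2.61 CPM, was above the highest CTR mouse, at 2.40 CPM, by less than the SD of either group. The means were 3.30 ± 0.677 CPM in SD mice and 1.81 ± 0.562 CPM in CTR mice (SD, n = 3 each), with a log2 fold change of 0.85 ± 0.26 (SE). It was called in all 6 fits that left out 1 mouse, between 0.65 and 1.12. Mast cells, another known source of Hdc, were looked for with a list of 10 markers, of which only Kit and Hpgds were measured. The other listed markers were absent from the deposited counts, in which the lowest gene has 40 counts over the 6 mice. Kit and Hpgds are also expressed by brain cells, so their levels cannot show whether mast cells contributed to Hdc. What part mast cells have in the level of Hdc was not tested. Kit was at 96.9 ± 6.73 CPM in SD mice and 102 ± 9.11 CPM in CTR mice, and Hpgds at 7.35 ± 0.823 CPM in SD mice and 7.34 ± 0.244 CPM in CTR mice (SD, n = 3 each).

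Mc4r, on chromosome 18 from 66857704 to 66860506, had the smallest difference. It had 199, 171 and 198 counts in SD mice 2, 5 and 6, against 126, 130 and 137 counts in CTR mice 1, 2 and 5. In CPM, SD mice 5 and 6, at 5.79 and 5.73 CPM, lay close above CTR mouse 1, at 5.52 CPM, and only SD mouse 2, at 7.72 CPM, stood clear of the CTR mice. The means were 6.41 ± 1.13 CPM in SD mice and 5.13 ± 0.550 CPM in CTR mice (SD, n = 3 each), and the log2 fold change of 0.32 ± 0.17 (SE) was under the cutoff. Leaving out any mouse did not bring it to a call, and without SD mouse 2 it was 0.17.

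Lepr, on chromosome 4 from 101717404 to 101815352, followed another order of mice. It had 210, 428 and 394 counts in SD mice 2, 5 and 6, against 186, 64 and 261 counts in CTR mice 1, 2 and 5. The highest levels were those of SD mouse 5, at 14.5 CPM, and SD mouse 6, at 11.4 CPM, while SD mouse 2, at 8.15 CPM, was level with CTR mouse 1 and below CTR mouse 5, at 8.57 CPM. CTR mouse 2 was far below the rest at 2.64 CPM. The means were 11.3 ± 3.17 CPM in SD mice and 6.45 ± 3.31 CPM in CTR mice (SD, n = 3 each), with a log2 fold change of 0.81 ± 0.36 (SE). Lepr was not called by DESeq2, at 0.81, or without SD mouse 5, at 0.60, SD mouse 6, at 0.81, or CTR mouse 2, at 0.44. The summed choroid plexus markers were likewise highest in SD mice 5 and 6 and lowest in CTR mouse 2. Of the 15 markers edgeR called 14 higher, all but Ttr, and DESeq2 called 7. Of all genes edgeR called 2.1% higher and DESeq2 1.47%. Markers of leptomeninges and fibroblasts summed to 235, 435 and 456 CPM in SD mice 2, 5 and 6. In CTR mice 1, 2 and 5 they summed to 311, 156 and 252 CPM. By edgeR 1 of 10 was called higher, Igf2, the most abundant of the list in every mouse. Igf2 was at 99.5, 282 and 301 CPM in these SD mice and at 138, 53.8 and 111 CPM in these CTR mice. The median log2 fold change of the list was 0.13, with 7 of 10 positive. What part choroid plexus and leptomeninges have in the Lepr result was not tested. The choroid plexus sum was 11359 CPM in SD mouse 5 and 11245 CPM in SD mouse 6. Irs4, Ecel1, Baiap3 and Esr1 were within the CTR range in SD mouse 5 and above every CTR mouse in SD mouse 6. What part the choroid plexus has in the levels of these genes was not tested. Counts per gene do not separate the long, signalling form of the receptor from its short forms.

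**Figure D2:**
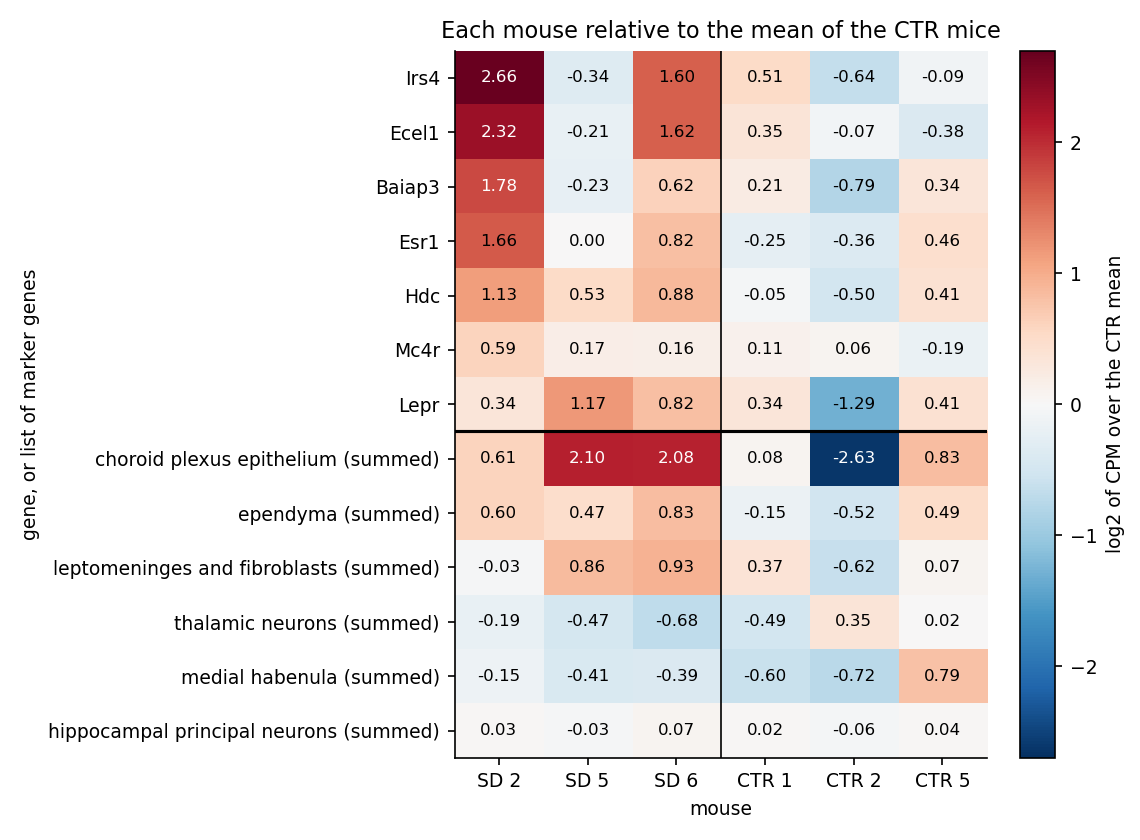
Log2 of the level in each mouse (columns, SD left and CTR right) over the mean of the 3 CTR mice, for the 7 genes (upper rows) and for the summed level of marker lists (lower rows). In SD mouse 5 Irs4 is at -0.34 and Ecel1 at -0.21, while Lepr is at 1.17 and the choroid plexus sum at 2.10.

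The spread between SD mice set 4 of these genes apart from most genes in the range of level of the 7 genes. Among 4393 tested genes whose mean CPM lay between those of the least and the most abundant of the 7 genes, the median coefficient of variation was 11.1% in SD mice and 13.8% in CTR mice. Irs4, Ecel1, Baiap3 and Esr1 had 82.4%, 69.3%, 69.0% and 55.3% in SD mice, at or above the 99.3 percentile of those genes. In CTR mice the same 4 genes had 39.3%, 25.7%, 36.9% and 32.9%, at the 94.5, 83.8, 93.5 and 91.1 percentiles, so their spread was high there too. Counting error alone gives 22.5%, 9.73%, 6.00% and 12.0% for these genes in CTR mice. Irs4 was at the lower end of the range compared, so low counts make up part of its CTR spread. Lepr had 27.9% in SD mice and 51.3% in CTR mice, at the 92.6 and 97.5 percentiles. Hdc had 20.5% and 31.0%, at the 83.8 and 89.6 percentiles. Mc4r varied least, with 17.7% in SD mice and 10.7% in CTR mice.

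Levels of different genes were compared per kilobase of exon. In SD mice the order was Baiap3 (4.01 ± 2.77 CPM per kb), Ecel1 (3.57 ± 2.47), Mc4r (2.29 ± 0.405), Lepr (1.61 ± 0.449), Hdc (0.516 ± 0.106), Irs4 (0.415 ± 0.342) and Esr1 (0.375 ± 0.207, SD, n = 3 each). In CTR mice it was Baiap3 (2.06 ± 0.762 CPM per kb), Mc4r (1.83 ± 0.196), Ecel1 (1.20 ± 0.307), Lepr (0.916 ± 0.470), Hdc (0.283 ± 0.0879), Esr1 (0.190 ± 0.0626) and Irs4 (0.123 ± 0.0482, SD, n = 3 each). Among neighbours in these orders, the ranges were apart for Lepr and Hdc in SD mice and for Mc4r and Ecel1 in CTR mice, and overlapped for all others. All 7 genes were low in this tissue. Averaged over the 6 mice, Baiap3 was at the 37.4 percentile of all genes by CPM per kb and Irs4 at the 6.94 percentile.

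**Figure D3:**
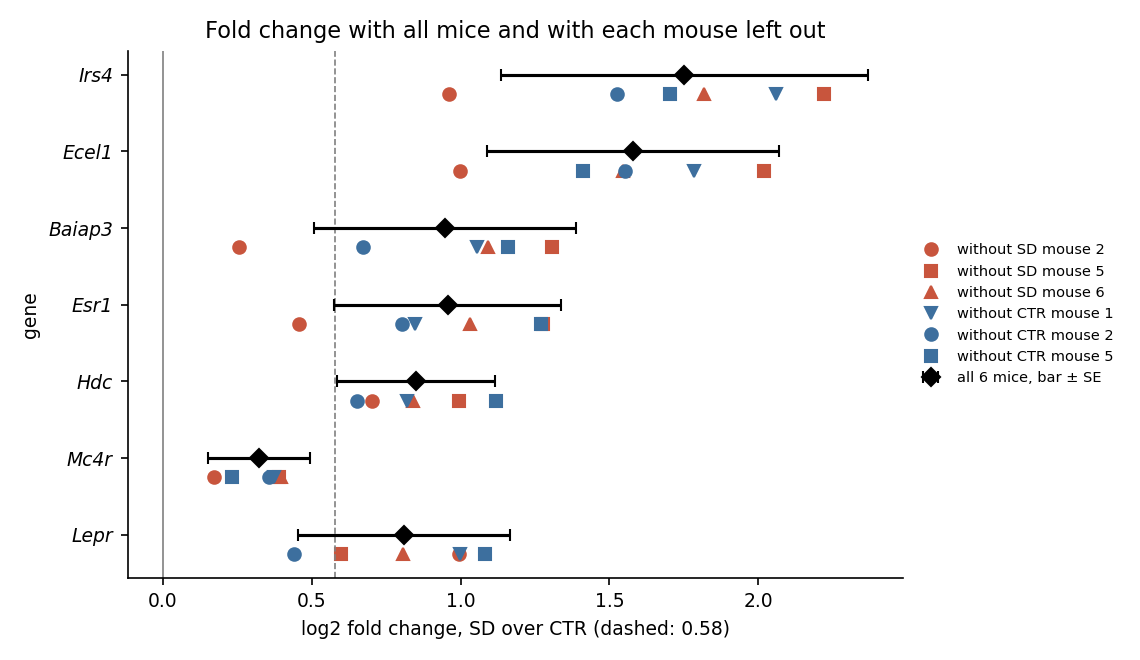
Log2 fold change of SD over CTR mice (x axis) for each gene, with all 6 mice (black diamond, bar ± standard error) and with each mouse left out in turn (coloured symbols). The dashed line is the cutoff of 0.58. Leaving out SD mouse 2 gives the lowest value of Irs4, Ecel1, Baiap3 and Esr1, at 0.96, 1.00, 0.26 and 0.46, and leaving out CTR mouse 2 the lowest of Lepr, at 0.44.

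The partners of these genes in their own pathways were examined next. In the leptin and melanocortin pathway 2 of the 16 other measured genes were called higher and none lower, and the median of their log2 fold changes was -0.022. These were Mc3r, the melanocortin 3 receptor, and Mrap2, an accessory protein of melanocortin receptors. Mc3r had 32, 20 and 23 counts in SD mice 2, 5 and 6, against 2, 1 and 12 counts in CTR mice 1, 2 and 5, with a log2 fold change of 2.14 ± 0.59 (SE). Mrap2 had 216, 173 and 222 counts in SD mice, against 99, 77 and 143 counts in CTR mice, with a log2 fold change of 0.75 ± 0.20 (SE). In both genes every SD mouse exceeded every CTR mouse in CPM, and both were called in all 6 fits that left out 1 mouse. The size of the Mc3r value rested on CTR mouse 5, without which its log2 fold change was 3.64. Of the ligand genes of this pathway, Pomc had 35, 19 and 29 counts in SD mice and 16, 16 and 8 in CTR mice, and was not called.

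The other pathways showed few calls. Of the 8 other measured genes of the histamine system 1 was called higher and none lower, and the median was -0.041. It was Slc29a4, a transporter that takes up monoamines, at 47.8 ± 11.3 CPM in SD mice and 31.0 ± 7.08 CPM in CTR mice (SD, n = 3 each), with a log2 fold change of 0.63. Its highest levels were in SD mice 5 and 6, at 47.2 and 59.4 CPM, and SD mouse 2, at 36.7 CPM, was below CTR mouse 1, at 39.1 CPM. It was not called without SD mouse 6, at 0.44, CTR mouse 2, at 0.52, or CTR mouse 5, at 0.56. None of the 11 other insulin signalling genes was called, with a median of -0.026, and the kinase genes Pdpk1 and Akt1 had log2 fold changes of -0.11 and -0.03. None of the 14 other genes of the MUNC13 family and of dense core vesicles was called, with a median of -0.065, and Unc13a, which encodes the main neuronal MUNC13, had -0.10. None of the 13 other genes of steroid receptors and oestrogen signalling was called, with a median of -0.10, among them the coactivator gene Ncoa1 with -0.14 and the mineralocorticoid receptor gene Nr3c2 with 0.08. Of the 4 other measured M13 peptidases 1 was called lower and none higher, with a median of -0.15. This was Mmel1, a neprilysin-like peptidase, with 4, 10 and 9 counts in SD mice 2, 5 and 6, against 14, 23 and 20 counts in CTR mice 1, 2 and 5, and a log2 fold change of -1.52 ± 0.38 (SE). Against these counts, 2.1% of all tested genes were called higher and 0.88% lower.

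Wider lists of hypothalamic neuron genes, which include Mc3r again, were examined as well. In lists written with earlier results of these data known, 32 of 51 transcription factors, receptors and other neuron genes were measured. Of these 10 were called higher, 1 lower and 21 not at all, while 2.1% of all tested genes were called higher and 0.88% lower. Nothing is read from this difference, because the lists were written with earlier results known. The median log2 fold change of the 32 genes was 0.32. Their count called higher was 5 without SD mouse 2, CTR mouse 1 or CTR mouse 2, and 13 without CTR mouse 5. In the same fits 388, 271, 204 and 500 of all genes were called higher. Of the receptors, Crhr2, which binds corticotropin-releasing hormone and urocortins, was at 5.55 ± 1.48 CPM in SD mice and 2.57 ± 0.991 CPM in CTR mice (SD, n = 3 each). Its log2 fold change was 1.12 ± 0.29 (SE). By mouse it was at 3.88, 6.06 and 6.71 CPM in SD mice 2, 5 and 6 and at 3.55, 1.57 and 2.59 CPM in CTR mice 1, 2 and 5. Like Lepr, Crhr2 was thus highest in SD mice 5 and 6 and lowest in CTR mouse 2. The prolactin receptor gene Prlr, which is also a marker of the choroid plexus, was at 24.6, 85.6 and 90.2 CPM in SD mice 2, 5 and 6 and at 22.6, 4.83 and 25.6 CPM in CTR mice 1, 2 and 5. It thus followed the order of Lepr and not that of Irs4, with its highest levels in SD mice 5 and 6 and its lowest in CTR mouse 2. Of 7 measured transcription factors 1 was called, Six3, also a striatal marker, with a log2 fold change of 0.85 ± 0.35 (SE), and it was not called without SD mouse 5, SD mouse 6, CTR mouse 1 or CTR mouse 2, at 0.70, 0.88, 0.87 and 0.52. Ntsr1, a neurotensin receptor, was called lower, with all SD mice below all CTR mice, as in 6.2% of tested genes, at 5.53 ± 0.549 CPM in SD mice and 9.10 ± 1.47 CPM in CTR mice (SD, n = 3 each).

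Of 22 peptide genes of the hypothalamus 11 were measured, and 2 were called higher and none lower. Of all tested genes 2.1% were called higher and 0.88% lower, and this list too was written with earlier results known. Cartpt, the precursor of an appetite-restraining peptide, had 173, 37 and 186 counts in SD mice 2, 5 and 6, against 51, 42 and 52 counts in CTR mice 1, 2 and 5, so that SD mice 2 and 6 were high and SD mouse 5 was not, as in Irs4 and Ecel1. It was called without SD mouse 5 and without CTR mouse 1, and in none of the other 4 fits that left out 1 mouse, where its log2 fold change was 0.83 to 1.18. Trh, the precursor of thyrotropin-releasing hormone, was high in SD mice 2 and 5 instead, with 460 and 156 counts, and had 19 counts in SD mouse 6, against 19, 14 and 60 counts in CTR mice 1, 2 and 5. It was not called without SD mouse 2, at 1.31, or CTR mouse 1, at 2.56.

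**Figure D4:**
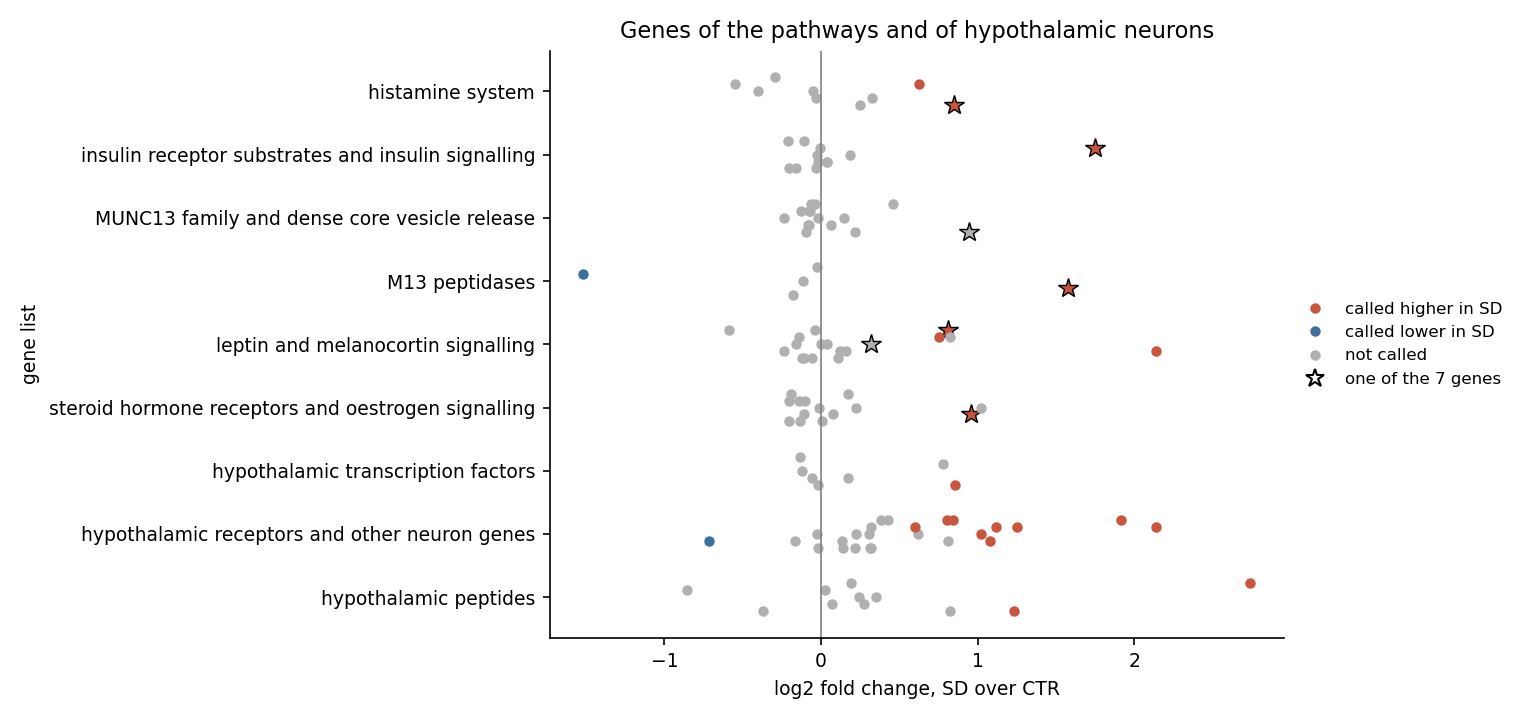
Log2 fold change of SD over CTR mice (x axis) for the measured genes of 9 lists (rows). Stars are the 7 genes, red marks genes called higher, blue genes called lower and grey genes not called. In the lists of insulin signalling, vesicle release, M13 peptidases and steroid receptors no gene beside those marked by stars was called higher.

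Finally, the genes whose profile over the 6 mice lay nearest to each of the 7 were looked up among 13412 genes with a mean of at least 1 CPM. This likeness uses the shape of the profile and not its size, and with 6 mice close matches are common among so many genes. The nearest to Irs4 were Ufsp1, Lpar4 and Chrm5, at a root mean square difference of 0.17 to 0.22, and the nearest to Ecel1 were Chrm5, Fjx1 and Nelfcd, at 0.14 to 0.17. Chrm5, a muscarinic receptor gene found for both, had a log2 fold change of 0.42. Baiap3 lay nearest to Wdr66, Hap1 and Lpar4, and Esr1 to Mccc2, Pnck and Henmt1, at 0.11 to 0.17. The nearest to Lepr were Gmnc, Trpm3 and Map3k15, at 0.07 to 0.10, closer than for any other of the 7 genes. Their log2 fold changes were 0.47, 0.55 and 0.43. Hdc lay nearest to Dancr, Htr4 and Morn1, and Mc4r to Xpnpep1, Aqp9 and As3mt, at 0.11 to 0.19.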

How the data were processed

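The deposited table holds raw counts per gene and mouse, with no normalization. The authors used Trim Galore for quality control, HISAT2 with default parameters for mapping (mm10) and featureCounts for strand-specific counting that kept multi-mapping reads, so genes with near-identical copies are uncertain; SAMtools, Picard and DESeq2 are also named in the submitters' processing notes. Which versions and which annotation they used is not given in the sources used here. Fold changes and p-values of the authors' own comparison, also in the table, and the sheets of subsets were not used. Every gene listed has at least 40 counts summed over the mice. The paper describes hippocampal tissue, whereas the label's extraction protocol speaks of cells and spheroids, and this was not resolved.

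Counts were filtered with filterByExpr of edgeR 4.0.16 (R 4.3.3), which removed 78 genes and kept 15345, scaled by TMM factors and compared between SD and CTR with its quasi-likelihood test (glmQLFit, glmQLFTest) without covariates. The standard error is |log2 fold change| over the root of the F statistic. Levels are CPM with TMM factors, and profiles were compared on log2 CPM (prior count 2). Exon lengths and coordinates are from GENCODE vM21 (GRCm38). The test was checked on simulated data. The 7 genes and all lists were chosen with earlier results of these data known. Named from each list were its called genes of smallest p, up to 4, or without any its 2 most abundant genes; Pomc was named outside this rule after its values were seen. Named were also the 3 nearest genes by profile. Alternatives were DESeq2 1.42.0, other size factors, no filter, omission of Rn45s, each mouse left out, a replicate block and a threshold on adjusted p; the values of called list genes under them were added after the data were seen. Whether litters differed is not stated, and p-values therefore reflect the spread among these mice alone.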

Additional observations from a re-analysis of the deposited data

How the results depend on the processing

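Fold changes of the 7 genes stayed positive under all alternatives. With DESeq2 size factors, upper-quartile factors, no filter or without Rn45s the same 5 genes were called. DESeq2 called 4, without Lepr. With a threshold of 0.05 on the adjusted p of edgeR, 0 genes were called higher and 0 lower, among them 0 of the 7 genes and 0 other hypothalamic neuron genes; edgeR gave 1277 genes an unadjusted p under 0.05 and DESeq2 gave 56 an adjusted p under 0.05. With each mouse left out in turn, 2 to 6 of the 7 genes were called higher, 5 to 13 of the other hypothalamic neuron genes, and 155 to 500 of all genes higher and 87 to 207 lower. Only the numbers 2 and 5 occur in both groups and no label ties them, so the mice were not treated as pairs. Deviations of same-numbered mice from their group means correlated at 0.21 and 0.12. With the replicate number as a block, 239 of all genes were called higher and 76 lower, and 7 of the other hypothalamic neuron genes higher. Of the 7 genes 2 were called, Ecel1 and Lepr, while Irs4, Hdc and Esr1 were not, at log2 fold changes of 1.64, 0.83 and 0.77. Low counts, such as 12 of Irs4 and 31 of Hdc in CTR mouse 2, limit the precision of these levels.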

Other observations

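Mmel1 and Ntsr1 were lower in every SD mouse than in every CTR mouse, as 6.2% of tested genes were, and both were called in all 6 fits that left out 1 mouse. In DESeq2 both were called lower too. Ntsr1 had 130, 181 and 187 counts in SD mice 2, 5 and 6, against 221, 247 and 226 counts in CTR mice 1, 2 and 5, the opposite direction to 10 of the other hypothalamic neuron genes. No explanation was tested.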
